A study of Mus musculus with 6 samples.

Results

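The collagen genes other than those of collagen VI were followed through ribosome-bound RNA of neonatal mouse kidney. They were the rows of the deposited table whose symbol is Col, a number, a and a number, without those that begin with Col6a, which gave 38 of 48587 rows. The table holds 6 libraries, 3 from littermate controls (Cdh16Cre;Foxp1fl/+;RiboTag) and 3 from Foxp1-deficient animals (Cdh16Cre;Foxp1fl/fl;RiboTag), called deficient libraries from here on. All the animals thus carried Cre under Cdh16, which encodes a cadherin of renal tubules, at least 1 floxed allele of the forkhead transcription factor gene Foxp1, and RiboTag, which puts an HA tag on ribosomes of cells with Cre activity. Each library came from an anti-HA pulldown of polysomes, and whether kidneys or animals were pooled is not given in the sources used here. For treatment the labels name a vehicle in controls but a chronic acid load in the other group, so genotype and treatment cannot be told apart; the protocols describe no acid load. Whether the replicates were different animals is not stated, and p-values may therefore reflect technical spread only.

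Collagens are secreted or membrane proteins whose α chains wind into triple helices. Fibrillar chains (types I, II, III, V, XI, XXIV and XXVII) form the fibres of connective tissue and are made mostly by fibroblasts and related stromal cells. Collagen IV forms the network of basement membranes, where the α1 and α2 chains are found nearly everywhere in the kidney and the α3 to α6 chains mainly in the glomerulus, Bowman's capsule and some tubules. FACIT chains decorate fibrils, types VIII and X form short-chain networks, multiplexins (XV and XVIII) sit in the basement membrane zone, and types XIII, XVII, XXIII and XXV span the cell membrane.

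Library totals ran from 9710048 to 18958196 counts. Foxp1 had 48.8, 30.8 and 35.9 CPM in controls 1, 2 and 3, against 34.6, 11.3 and 29.3 CPM in deficient libraries 1, 2 and 3, and the groups overlapped (log2 fold change -0.62, SE 0.49, adjusted p = 0.9998, edgeR quasi-likelihood test). CPM are counts normalised to library size and scaled throughout by TMM, edgeR's correction for library composition. Exons that stay in a floxed allele are counted too, so this checks the labels only in part. The tubule label was checked against 10 markers of tubule epithelium, whose summed level was 34.2, 64.4 and 423 CPM in the controls, against 57.9, 128 and 527 CPM in the deficient libraries. Cdh16 had 0.332 and 0.283 CPM in the 2 libraries numbered 1, whereas 10 stromal and fibroblast markers summed to at least 703 CPM in every library. The label of tubular cells was therefore poorly met in the libraries numbered 1 and 2. In those numbered 3 the stromal markers, at 985 CPM in the control and 1385 CPM in the deficient library, still summed to more than the tubule markers. The data thus describe what the pulldowns contained.

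Upstream sequences are shown for some of the genes described below. Col3a1 is an abundant stromal chain. Col5a1 and Col4a6 were higher in the deficient library of every pair, and Col8a2 was lower in every pair. None of the genes shown was called between genotypes in the edgeR quasi-likelihood test. All the sequences come from RefSeq on GRCm38.p6, the same assembly as mm10. Each ends before its gene's start and before any annotated gene that its window reached. The Col5a1 stretch ends at 27886380, while Col5a1 starts at 27886425 in the deposited annotation. The windows lie at chr1:45311288-45311537 and chr2:27886175-27886380 on the plus strand, at chrX:141474096-141474326 on the minus strand and at chr4:126286544-126286792 on the plus strand. Capitals mark a GC box, spelled GGGCGG, the CCAAT box, or a TATA motif, spelled TATAAA, searched on both strands.
Col3a1: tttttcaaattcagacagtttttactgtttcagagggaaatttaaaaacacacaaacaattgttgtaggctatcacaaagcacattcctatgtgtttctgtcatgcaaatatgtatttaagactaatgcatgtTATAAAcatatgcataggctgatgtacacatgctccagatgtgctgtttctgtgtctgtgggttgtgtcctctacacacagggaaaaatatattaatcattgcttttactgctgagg
Col5a1: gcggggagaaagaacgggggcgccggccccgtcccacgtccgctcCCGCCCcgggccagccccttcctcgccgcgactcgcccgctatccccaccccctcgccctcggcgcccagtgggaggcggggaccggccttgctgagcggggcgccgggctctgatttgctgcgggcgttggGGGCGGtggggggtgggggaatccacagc
Col4a6: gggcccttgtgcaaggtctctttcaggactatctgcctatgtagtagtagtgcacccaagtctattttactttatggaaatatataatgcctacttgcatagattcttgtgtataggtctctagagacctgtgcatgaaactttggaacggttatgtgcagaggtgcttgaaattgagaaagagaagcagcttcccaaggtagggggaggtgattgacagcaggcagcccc
Col8a2: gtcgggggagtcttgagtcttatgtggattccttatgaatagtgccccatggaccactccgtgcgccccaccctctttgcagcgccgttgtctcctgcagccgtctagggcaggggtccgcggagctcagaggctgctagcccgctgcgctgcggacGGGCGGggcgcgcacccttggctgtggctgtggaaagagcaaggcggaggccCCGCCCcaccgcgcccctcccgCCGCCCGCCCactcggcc
The Col3a1 window held a TATA motif, beginning 117 bases before its end, and no GC box. Col5a1 held 2 GC boxes and Col8a2 held 4, of which 2 overlap. None of these motifs was found in the printed Col4a6 stretch. The printed stretches of Col5a1, Col4a6 and Col8a2 leave out 44, 19 and 1 bases at the gene's side, where a window reached annotated gene, and a GC box of Col4a6 ends in its 19 bases. For the counts that follow, whole windows of 250 bases before a RefSeq start were searched, 31 windows for 29 of the 38 genes. Of the 29 genes, 17 held a GC box (58.6%, against 35.4% of 27025 genes), 12 a CCAAT box (41.4% against 37.5%) and 5 a TATA motif (17.2% against 14.3%). The forkhead motif TGTTTAC, searched on both strands, was in 0 of 29, against 3.54% of all genes. No match says only that these letters are not in this window.

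Col4a1 and Col4a2, which encode the major chains of basement membrane collagen, lie head to head on chromosome 8, and their starts overlap. The stretch from the start of Col4a2, at 11312805 on the plus strand, to the start of Col4a1 in the deposited annotation, at 11312826 on the minus strand, is shown in capitals where it holds a GC box.
Col4a2 to Col4a1: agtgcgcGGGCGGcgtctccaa
These 22 bases are exon of both genes in the deposited annotation, and fragments there could not be given to 1 gene.

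Most collagen RNA was that of types I and III and of the α1 and α2 chains of type IV. The 38 genes took 1.69%, 0.856% and 2.94% of all counts in controls 1, 2 and 3, and 1.80%, 0.515% and 3.12% in deficient libraries 1, 2 and 3. Both libraries numbered 2 thus had the least collagen and both numbered 3 the most, whatever the genotype. Col1a1, Col1a2 and Col3a1 together made up between 59.9% (deficient 2) and 73.1% (control 1) of these counts. Per kilobase of exon, the mean level over the 6 libraries was 948 CPM per kb for Col1a1, 290 for Col1a2, 209 for Col3a1, 195 for Col4a1 and 194 for Col4a2. Next came Col8a1, Col5a2, Col5a1, Col16a1 and Col18a1, with means from 83.8 down to 18.5 CPM per kb. The deposited length merges the exons of all annotated transcripts, so genes with rarely used exons are understated on this scale.

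**Figure D1:**
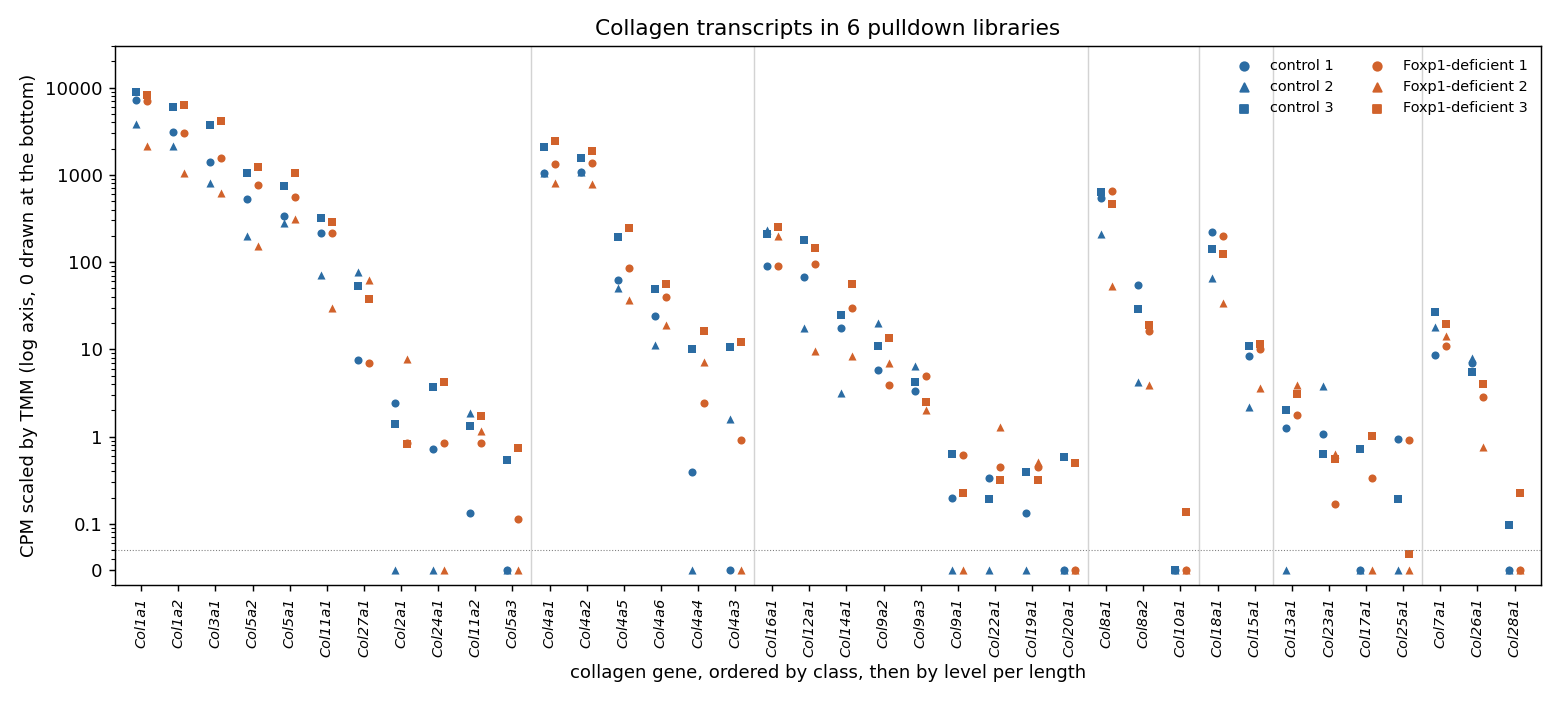
Level of each of the 38 collagen genes in every library (y axis, CPM scaled by TMM on a log axis, with 0 drawn at the bottom), by class and then by mean level per length. Blue stands for controls and orange for deficient libraries, and the shape gives the replicate number; the libraries numbered 2 (triangles) lie lowest for most abundant chains, in both genotypes.

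Between genotypes no collagen gene passed the test. Of the 38, 29 had enough counts to be tested, 16 with a higher and 13 with a lower mean in deficient libraries, and 0 were called at an adjusted p under 0.05 (edgeR quasi-likelihood test, against 0% of all 14311 genes tested). At an unadjusted p under 0.05 there were again 0 of 29, against 0.72% of all genes, and the lowest p of a member was 0.121. DESeq2 also called 0 of 29, against 0.0419% of all genes. The median log2 fold change was 0.09 over the 29 genes and 0.03 over all genes. Equal replicate numbers were found to pair libraries by the correlation of their deviations, and with that number as a block the collagen median was 0.01, with 15 genes higher and 14 lower. In the blocked edgeR fit 3 of 29 had an unadjusted p under 0.05 (Col14a1, Col5a1 and Col4a6, all higher), against 5.32% of all genes, and again 0 passed, with a lowest adjusted p of 0.734. Blocked fits in DESeq2 (1.19% of all genes called), in limma-voom (0.0559%) and in edgeR without the libraries numbered 2 (0.273%) also called 0 of 29. In fits without a block the balance of directions moved with the library left out. Without control 3, 22 of 29 genes were higher (median 0.42), and without deficient 3 only 5 were (median -0.40). Each of these fits kept the partner of the library left out, so differences between replicate numbers entered the contrast. Without both libraries numbered 2, 17 of 29 were higher (median 0.15).

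**Figure D2:**
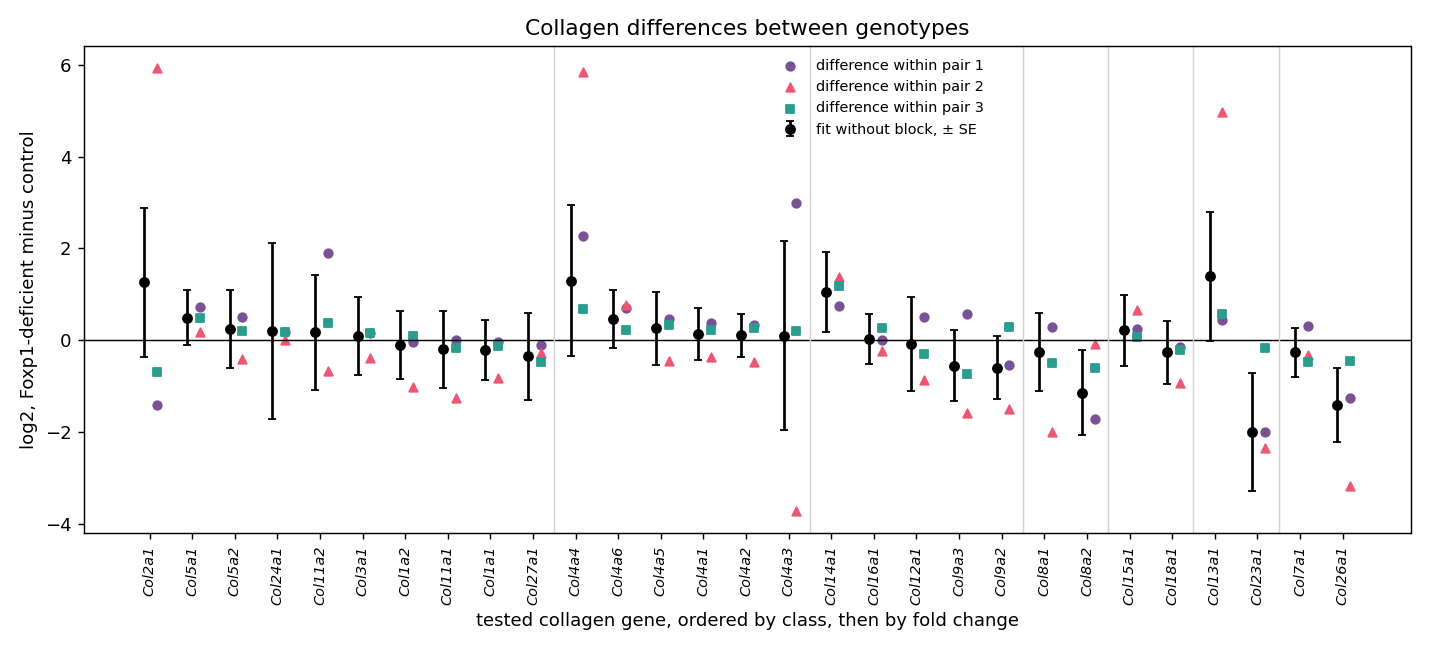
Difference between genotypes for the 29 tested collagen genes (y axis, log2, deficient minus control), ordered by class. Black points with bars give the edgeR fold change ± SE over 3 against 3 libraries, and coloured symbols the difference within each pair of equally numbered libraries; the bars of most genes include 0, and pair 2 departs furthest for low genes such as Col4a4 and Col2a1.

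The replicate number accounted for most of the variation among libraries. For the median collagen gene it took 86.8% of the sum of squares of log2 CPM and genotype 5.09%, against 79.3% and 5.73% for the median of all genes tested. Both libraries numbered 2 were below the other 4 for 16 of the 29 genes, or 55.2%, against 34.5% of all genes tested, among them Col1a1, Col1a2, Col3a1, Col5a1, Col5a2, Col11a1, Col8a1 and Col18a1. The mean was highest in pair 3 for 22 of 29 (75.9%, against 31.6% of all genes). A smaller set went another way. Col27a1, a fibrillar chain of cartilage and other tissues, had 7.51, 76.4 and 53.1 CPM in controls 1, 2 and 3, against 7.01, 62.6 and 37.9 CPM in the deficient libraries, and the replicate number took 98.6% of its sum of squares. Like it, Col16a1, Col7a1, Col9a2 and Col11a2 were lower in both libraries numbered 1 than in the other 4, which makes 5 of 29 (17.2%, against 12.9% of all genes). The summed level of tubule markers was likewise lowest in both libraries numbered 1 within each genotype. In control 1 Lrp2 alone gave 33.1 of its 34.2 CPM, and Lrp2 had 32.5 CPM in control 2. Summed macrophage markers (288 and 52.1 CPM in control 1 and deficient 1) and stratified epithelium markers (19.1 and 128 CPM) were also lowest there within each genotype. The part of any of these markers in this pattern was not tested. In bulk libraries fewer cells of a type and less RNA per cell cannot be told apart.

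**Figure D3:**
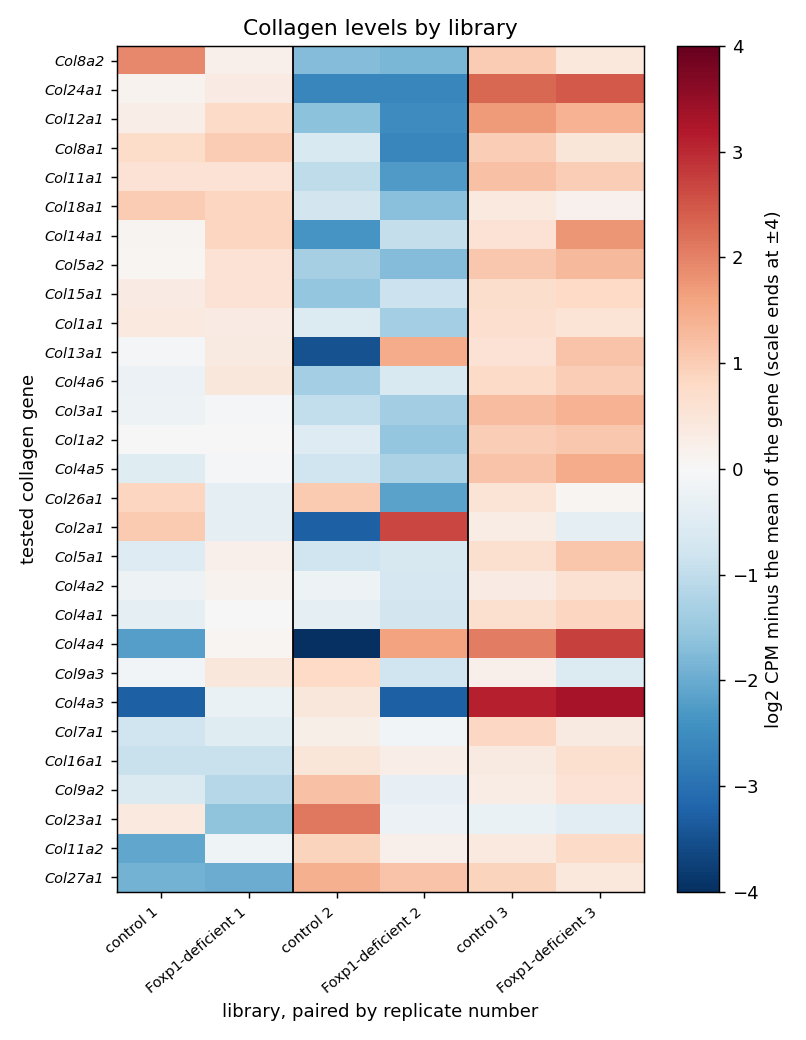
Level of the 29 tested collagen genes in each library (colour, log2 CPM minus the gene's mean over 6 libraries), with columns paired by replicate number and rows ordered by the difference between pairs 2 and 1. The upper rows, from Col8a2 to Col5a2, are blue in both libraries numbered 2, whereas Col27a1 at the bottom is blue in both libraries numbered 1.

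Among the fibrillar chains, 10 of 11 were tested, 6 higher and 4 lower, and their median log2 fold change was 0.13. Col1a1, which encodes the α1 chain of type I collagen, had 7266, 3789 and 8928 CPM in the controls, against 7044, 2158 and 8146 CPM in the deficient libraries. The groups overlapped almost entirely, and within pairs the deficient library was lower by log2 differences of -0.04, -0.81 and -0.13. Its log2 fold change was -0.20 (SE 0.65, unadjusted p = 0.763, edgeR). Col1a2, its partner chain, had 3063, 2130 and 5964 CPM in controls, against 2996, 1045 and 6389 CPM in deficient libraries (-0.10, SE 0.74). Col3a1, the chain of type III collagen, had 1404, 802 and 3753 against 1563, 614 and 4182 CPM (0.09, SE 0.84). For these genes the distance between libraries of different number was far larger than that between genotypes: the replicate number took 89.4%, 88.7% and 98.5% of the sum of squares.

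Type V collagen nucleates type I fibrils. Its main chain Col5a1 was among the 6 of 29 collagens higher in the deficient library of every pair (20.7%, against 16.5% of all genes). Another 6 collagens were lower in every pair. Col5a1 had 335, 277 and 751 CPM in controls 1, 2 and 3, against 557, 313 and 1046 CPM in the deficient libraries, with overlapping groups. The deficient library was higher in 3 of 3 pairs, by log2 differences of 0.73, 0.18 and 0.48. The fold change was 0.49 (SE 0.60, unadjusted p = 0.443) without a block and 0.46 (SE 0.16, unadjusted p = 0.0338, adjusted p = 0.853, edgeR) with it, and without deficient 3 the unblocked value was -0.065. Col5a2, the second chain, had 534, 200 and 1058 against 756, 152 and 1223 CPM, higher in pairs 1 and 3 and lower in pair 2. Col11a1, a related chain that can enter the same heterotypic fibrils, had 214, 71.5 and 321 against 214, 29.7 and 285 CPM. Col2a1, the main collagen of cartilage, rested on 37, 0 and 29 counts in controls, against 15, 61 and 18 in deficient libraries. Its fold change of 1.26 (SE 1.62) was -0.63 without deficient 2. Beside it, 6 cartilage markers summed to between 16.8 and 69.4 CPM, of which Sox9 alone gave 13.1 to 44.8 CPM. Matn1 was at 0 in every library, and Acan, the cartilage proteoglycan gene, reached at most 8.07 CPM. Col24a1 reached 4.21 CPM and Col11a2 1.89 CPM.

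All 6 collagen IV genes could be tested, and all 6 had a higher mean in deficient libraries; the median log2 fold change was 0.20, at unadjusted p from 0.453 to 0.961 (edgeR). Of all genes tested 53.6% were higher. Without a block, this common direction changed with the library left out. When deficient 3 was left out and its partner control 3 kept, Col4a1 (-0.36), Col4a2 (-0.21), Col4a3 (-3.08) and Col4a5 (-0.74) were lower. Within pair 3 the same genes were higher in the deficient library, by log2 differences of 0.22, 0.27, 0.19 and 0.34, and within pair 2 each was lower. Col4a4 and Col4a6 stayed higher whichever library was left out. Col4a1 had 1046, 1037 and 2076 CPM in controls, against 1347, 807 and 2416 CPM in deficient libraries (0.14, SE 0.56). Col4a2 had 1077, 1082 and 1548 against 1350, 780 and 1864 CPM (0.11, SE 0.47). Both were higher in pairs 1 and 3 and lower in pair 2, as was Col4a5, with 62.8, 50.5 and 196 against 86.2, 36.8 and 248 CPM. Col4a6, the X-linked partner of Col4a5, had 24.4, 11.2 and 48.8 CPM in controls, against 40.04, 19.1 and 56.9 CPM in deficient libraries. It was higher in 3 of 3 pairs, by 0.71, 0.76 and 0.22 on the log2 scale, while the groups overlapped (fold change 0.46, SE 0.63, and 0.56, SE 0.20, unadjusted p = 0.0389, adjusted p = 0.853, with the block in edgeR).

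Col4a3 and Col4a4, whose chains join that of Col4a5 in the mature glomerular basement membrane, were highest in the libraries numbered 3. Col4a3 had 0, 15 and 218 counts in controls, against 16, 0 and 265 in deficient libraries, or at most 12.1 CPM. Col4a4 had 6, 0 and 206 against 43, 57 and 352 counts, at most 16.1 CPM. In the 2 libraries numbered 3 both chains were well above the floor of 3 counts, where 3 counts equal 0.137 to 0.382 CPM according to the library. Outside them Col4a3 reached 1.58 CPM and Col4a4 7.27 CPM, the latter in deficient 2. Col4a4 was higher in 3 of 3 pairs (fold change 1.30, SE 1.64), while the groups overlapped. The podocyte gene Nphs1 reached 1.13 CPM at most, and the tubule gene Umod stood at 69.8 and 75.6 CPM in pair 3 but no higher than 0.735 CPM elsewhere. Their part in the levels of Col4a3 and Col4a4 was not tested.

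The largest fold changes lay among minor chains. Col14a1, a FACIT chain that binds collagen fibrils, had 17.7, 3.15 and 24.9 CPM in controls 1, 2 and 3, against 30.0, 8.41 and 56.7 CPM in the deficient libraries. Both libraries numbered 2 were low and the groups overlapped, but each deficient library was higher than its partner, by 0.76, 1.38 and 1.18 on the log2 scale. The fold change was 1.05 (SE 0.88, unadjusted p = 0.267) without a block and 1.10 (SE 0.24, unadjusted p = 0.00544, adjusted p = 0.734, edgeR) with it. Among the fits run, only limma-voom with sample weights and a block, chosen after seeing the data, called Col14a1 (1.05, adjusted p = 0.0107) and Col5a1 (0.55, adjusted p = 0.0405), and it called 1.7% of all genes. Dcn, the gene of the fibril-binding proteoglycan decorin, was also higher in each deficient library than in its partner, with 270, 175 and 368 against 431, 247 and 733 CPM, and was named after its values were seen. Of the 9 tested markers on its stromal and fibroblast list 5 had a higher and 4 a lower mean. Pdgfrb, Tcf21 and Mfap4 were lower in every deficient library than in any control, as were 2.11% of all genes tested. No marker on this list passed the edgeR test.

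Col26a1 was the 1 tested collagen whose groups did not overlap. It had 6.91, 7.98 and 5.54 CPM in the controls, against 2.83, 0.765 and 4.03 CPM in the deficient libraries, where 0.765 CPM stood for 6 counts. Its log2 fold change was -1.41 (SE 0.80, unadjusted p = 0.121, adjusted p = 0.9998, edgeR), and genotype took 58.2% of its sum of squares. Groups lay apart in the lower direction for 1 of 29 collagens and 2.11% of all genes, and in the higher direction for 0 of 29 and 2.64%. Col23a1, a transmembrane chain, had 1.06, 3.78 and 0.632 CPM against 0.17, 0.637 and 0.549 CPM, from at most 36 counts in any library (-2.001, SE 1.29). Col8a2, a chain of the short-chain type VIII network, had 54.0, 4.20 and 29.0 against 16.4, 3.95 and 19.1 CPM (-1.14, SE 0.92). Its pairs differed by -1.71, -0.09 and -0.60, the most in pair 1. Its partner Col8a1 was far more abundant, with 538, 213 and 644 against 660, 52.9 and 460 CPM, and overlapped throughout (-0.25, SE 0.85).

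Counted by pairs, 6 of 29 collagens were higher in the deficient library of all 3 pairs (Col14a1, Col5a1, Col4a6, Col4a4, Col15a1 and Col13a1), against 16.5% of all genes. Another 6 were lower in all 3 (Col26a1, Col23a1, Col8a2, Col18a1, Col27a1 and Col1a1), against 16% of all genes. Each count is 20.7% of the collagens tested. Col13a1, a transmembrane chain, rested on 0 to 68 counts and Col15a1 on 21 to 253. Col18a1, the source of endostatin, had 219, 65.4 and 142 against 198, 34.0 and 123 CPM, and Col15a1, the related multiplexin, 8.37, 2.21 and 11.03 against 10.01, 3.57 and 11.6 CPM. Of other FACIT genes, Col16a1 had 89.5, 231 and 212 against 89.4, 197 and 255 CPM, and Col12a1 67.1, 17.6 and 180 against 95.2, 9.69 and 145 CPM. Both showed replicate number rather than genotype, at 97.4% and 96.3% of the sum of squares. Col9a2 and Col9a3, minor chains of cartilage fibrils, ranged from 3.96 to 20.1 and from 2.04 to 6.41 CPM with overlapping groups, and Col7a1, which makes anchoring fibrils under stratified epithelium, from 8.64 to 27.0 CPM.

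The remaining 9 collagens were too low to test: Col5a3, Col9a1, Col10a1, Col17a1, Col19a1, Col20a1, Col22a1, Col25a1 and Col28a1. None exceeded 22 counts or 1.27 CPM in any library, and each had 0 counts in at least 1 library. Col17a1, a hemidesmosome chain of basal keratinocytes, had 0, 0 and 15 counts in controls, against 6, 0 and 22 in deficient libraries. The basal keratin gene Krt14 stood at 18.5 to 36.7 CPM in controls, against 126 to 325 CPM in deficient libraries, while its partner Krt5 was at most 0.113 CPM.

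Ratios of chains within 1 library do not depend on how libraries are scaled, so 7 pairs of chains were compared in this way. The ratio of Col1a1 to Col1a2 counts was 2.37, 1.78 and 1.497 in controls 1, 2 and 3 and 2.35, 2.07 and 1.28 in deficient libraries, with the highest value in pair 1 and the lowest in pair 3. Col4a1 to Col4a2 stayed within 0.958 and 1.34 in all 6 libraries, while either gene varied over a wider range. Col3a1 to Col1a1 was 0.193, 0.212 and 0.42 in controls, against 0.222, 0.285 and 0.513 in deficient libraries. This ratio was higher in 3 of 3 pairs, with a mean log2 difference of 0.31 that was smaller than the SD within each group (0.61 and 0.62). Col5a1 to Col5a2 was 0.628, 1.38 and 0.71 against 0.736, 2.06 and 0.855, also higher in 3 of 3 pairs (mean log2 difference 0.36). Col15a1 to Col18a1 was 0.0382, 0.0337 and 0.0778 against 0.0506, 0.105 and 0.0943, higher in 3 of 3 pairs too (0.77). Col4a5 to Col4a6 ran from 1.93 to 4.495, lower in pairs 1 and 2 and higher in pair 3. Col4a3 to Col4a4 has no stable ratio, since 1 chain had 0 counts in 3 libraries. All groups overlapped, and exact two-sided permutation p ran from 0.2 to 0.9 (Benjamini-Hochberg adjusted over the 7 ratios, 0.7 to 0.9), where 3 against 3 allows no p below 0.1. For the ratios that were higher in 3 of 3 pairs the exact paired sign-flip p was 0.25, the smallest that 3 pairs allow.

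**Figure D4:**
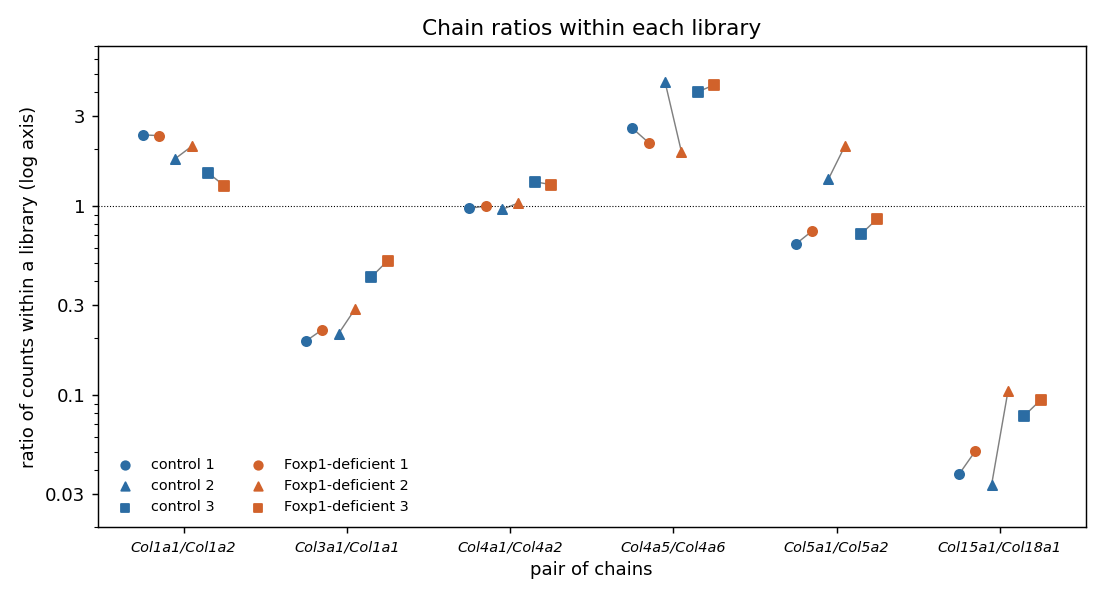
Ratio of the counts of 2 chains within each library (y axis, log scale) for 6 pairs of chains. Blue marks controls and orange deficient libraries, shapes give the replicate number, and grey lines join equally numbered libraries; the lines rise in all 3 pairs for Col3a1/Col1a1, Col5a1/Col5a2 and Col15a1/Col18a1, and Col4a1/Col4a2 stays near 1.

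Collagen chains are hydroxylated and folded in the endoplasmic reticulum, trimmed outside the cell and crosslinked. Of 47 genes listed for these steps and for collagen receptors 44 were tested, 34 with a higher and 10 with a lower mean in deficient libraries and a median log2 fold change of 0.12, against 53.6% higher and a median of 0.03 over all genes. None passed (edgeR, 0 higher and 0 lower), and 0 had an unadjusted p under 0.05 without a block (0.72% of all genes) and 2 of 44 with it (5.32% of all genes). Lox, the crosslinking enzyme lysyl oxidase, had the lowest p, with 354, 158 and 463 CPM in controls, against 984, 252 and 1173 CPM in deficient libraries. It was higher in 3 of 3 pairs with overlapping groups (fold change 1.30, SE 0.68, unadjusted p = 0.0925, and 1.17, SE 0.20, unadjusted p = 0.00213, adjusted p = 0.467, with the block in edgeR). P3h4, which acts in lysyl hydroxylation of collagen, had 206, 284 and 192 against 335, 350 and 276 CPM, again higher in every pair (0.49, SE 0.36).

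By step, 11 of 15 modification genes, 7 of 9 folding and export genes, 6 of 7 tested propeptide cleavage genes, 4 of 5 crosslinking genes and 6 of 8 tested receptors were higher. Plod3, a lysyl hydroxylase gene, had 136 ± 25.5 CPM in controls, against 168 ± 54.5 in deficient libraries (SD, n = 3 each), and Bmp1, whose protease removes the C-propeptide of fibrillar chains, 124 ± 35.6 and 152 ± 47.6. In the other direction Adamts3, an N-propeptide protease gene, had 3.01 ± 0.964 and 1.37 ± 1.19 CPM. Its groups lay just apart, at 2.26 CPM in control 1 and 2.15 CPM in deficient 1, and deficient 2 had 0 counts. Groups lay apart in the lower direction for 1 of the 44 tested genes of these lists, against 2.11% of all genes, and in the higher direction for 0, against 2.64%. Lair1, a leukocyte collagen receptor gene, had 4.13 ± 2.31 and 2.41 ± 1.94 CPM. Serpinh1, the collagen chaperone, had 2893 ± 1001 and 2517 ± 1152 CPM.

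Markers of other cell types give the setting of these values. The 6 mesothelial markers summed to 1697 to 2376 CPM in controls, against 2627 to 6348 CPM in deficient libraries, without overlap. Of these, 5 had a higher and 1, Wt1, a lower mean, and Lrrn4 was lower in pair 2. In deficient 2 Upk3b, Krt19 and Msln gave 2640, 1793 and 1594 CPM of the sum. The 7 stratified epithelium markers summed to 19.1 to 39.2 and 128 to 325 CPM, nearly all from Krt14. The 10 stromal and fibroblast markers summed to 703 to 985 against 743 to 1385 CPM, the 6 smooth muscle markers to 9762 to 21970 against 5182 to 10458 CPM, and the 7 macrophage markers to 288 to 981 against 52.1 to 498 CPM, each with overlap. Within pairs the deficient library had the lower smooth muscle and macrophage sums in 3 of 3. Its stromal and tubule sums were higher in 3 of 3, but the genes of these lists were divided. Of the stromal markers Dcn, Lum, Postn and Thy1 were higher in every pair, and Pdgfrb, Tcf21, Meis1 and Mfap4 lower in every pair. Dcn alone gave 270, 175 and 368 against 431, 247 and 733 CPM of the stromal sum. Of the 8 tested tubule markers 4 had a higher and 4 a lower mean. Lrp2 alone gave 33.1, 32.5 and 101 against 52.5, 121 and 176 CPM of the tubule sum. What part any of these markers had in the collagen values was not tested.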

How the data were processed

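Values are raw counts as deposited: featureCounts 1.5.1 assigned read pairs to gene symbols by exon on mm10 (annotation 86), per the file headers, with no option set for strand, multi-mapping or ambiguous fragments. The submitters' processing notes also list FastQC, Trimmomatic, STAR, SAMtools, deepTools and DESeq2, without roles. Gene length, another deposited column, served only for levels per kilobase. Other genes' exons covered at most 6.07% of any collagen's exon bases.

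Columns were matched to samples by name; groups and replicate numbers are those of the titles. The main test was edgeR's quasi-likelihood test (version 4.0.16 under R 4.3.3) after TMM and filterByExpr, two-sided, with Benjamini-Hochberg adjustment over 14311 genes and a threshold of 0.05. An SE is the log2 fold change over the square root of F. Pair differences and sums of squares used log2 CPM with a prior count of 2. Log2 chain ratios had 1 count added and were tested by exact permutation (scipy 1.17.1). Across genes, equally numbered libraries deviated together from their group means (r = 0.57, 0.53 and 0.62, at most 0.06 for other numbers), so numbers were taken to pair libraries, on the data's evidence and not the labels'.

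Depth was 9710048 to 18958196 counts per library. The limit for a count of 0, 3 counts, equals 0.137 to 0.382 CPM and reflects counting error alone. The collagen genes, the lists and the alternatives were chosen with earlier results of these data known. The rule for naming took the 10 genes of highest level per length, the 8 of lowest p, those with groups apart that reach 5 CPM, the collagen IV chains, the chains of the ratios and the 6 assembly genes of lowest p; others were named to account for every collagen or, like Dcn and Serpinh1, after their values were seen. Alternatives were other size factors and filters, DESeq2 1.42.0, limma 3.58.1, the replicate block and libraries left out. Code was tested on simulated data.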

Additional observations from a re-analysis of the deposited data

How the results depend on the processing

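No collagen gene was called without a replicate block under any alternative, and with the replicate block the collagen count was 0 in edgeR, DESeq2 and limma-voom and 2 in limma-voom with quality weights, which was chosen after seeing the data. Over all genes, against 0 in the reported fit, DESeq2 called 6, and with the replicate block DESeq2 called 171, limma-voom 8, limma-voom with quality weights 244 and edgeR without the libraries numbered 2 called 39. Of the 29 tested collagens, 8 kept their direction in all settings that could test them (Col13a1, Col14a1, Col23a1, Col26a1, Col4a4, Col4a6, Col8a2 and Col9a3) and 21 reversed in at least 1; causes were not tested. Col3a1 reversed with the replicate block in edgeR, DESeq2 and limma-voom (-0.024, -0.022 and -0.018). Col2a1 reversed to -0.74 in limma-voom with quality weights, -0.78 with a block added, -1.20 without the libraries numbered 2 and -1.15 with a block as well. Without the libraries numbered 2, Col1a2 reversed to 0.054 (0.032 with a block), Col9a2 to 0.040, Col12a1 to 0.088 with a block, the Col4a1/Col4a2 ratio to -0.0051 and the Col4a3/Col4a4 ratio to 0.47. Col16a1 reversed to -0.0065 with upper quartile factors, and Col12a1 to 0.0019 and Col9a2 to 0.022 in limma-voom with quality weights and a block.

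Leaving out 1 library at a time gave log2 fold changes from -0.36 to 0.77 for Col11a2, -0.31 to 0.35 for Col16a1, -0.86 to 0.19 for Col18a1, -1.73 to 2.16 for Col24a1, -0.87 to 0.94 for Col3a1, -0.36 to 0.55 for Col4a1, -3.08 to 2.48 for Col4a3, -0.21 to 0.66 for Col15a1, -1.02 to 0.24 for Col27a1, -0.74 to 1.13 for Col4a5, -0.40 to 0.95 for Col5a2, -0.73 to 0.31 for Col11a1, -0.75 to 0.98 for Col12a1, -0.53 to 0.19 for Col1a1, -0.88 to 0.42 for Col1a2, -0.60 to 0.16 for Col7a1, -0.86 to 0.27 for Col8a1, -0.63 to 2.08 for Col2a1, -0.21 to 0.38 for Col4a2 and -0.065 to 1.06 for Col5a1. For ratios it gave -0.19 to 0.25 for Col1a1/Col1a2, -0.038 to 0.66 for Col3a1/Col1a1, -0.084 to 0.19 for Col4a1/Col4a2 and -0.10 to 0.71 for Col5a1/Col5a2. All these values are without a block and keep the partner of the library left out, so differences between replicate numbers enter them.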
